A study of Mus musculus with 24 samples.

Results

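Circulating primitive erythroid cells of mouse embryos at stage E11.5 of gestation were compared with those a day earlier, at E10.5, across all genes measured. The comparison takes the 3 arrays labelled as E11.5 and the 3 labelled as E10.5, 6 of the 24 arrays of the series, chosen by stage label alone. All embryos carried a transgene in which the human epsilon-globin promoter drives a nuclear green fluorescent protein (H2B-EGFP), and fluorescent cells were sorted from blood that had been drained from the embryos. At E11.5 each of the 3 replicates was a single embryo, and at E10.5 each of the 3 was a pool of several embryos. RNA went through 1 round of amplification before hybridization to Illumina bead arrays. All 6 arrays lay on 1 slide, with E11.5 at its last 3 positions and E10.5 at its first 3, so pooling and slide position cannot be told apart from stage. P-values measure the spread between these samples, and the 3 arrays per stage limit the precision.

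Primitive erythroid cells are the first red cells of the embryo. They arise in the yolk sac, enter the circulation while they still have a nucleus, and go on dividing there while they fill with hemoglobin made of embryonic globin chains, condense their nuclei and stop dividing. Transcripts for making new ribosomes and for cell growth are high in dividing erythroblasts, and those for the red cell membrane, hemoglobin and the clearance of organelles belong to later maturation. The labelled cell type was checked against its markers: Hba-x and Hbb-bh1 (embryonic globins), Alas2 (first enzyme of heme synthesis), Slc4a1 (the band 3 anion exchanger), Epor (erythropoietin receptor), Gata1 and Klf1 (erythroid transcription factors) were each detected on all 6 arrays. Hbb-y, another embryonic globin, had no probe that could be named here.

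The deposited signals of the 6 arrays shared 1 distribution, with quantiles that differed by at most 1.36% between arrays. Probes detected per array numbered 14050, 13394 and 12355 at E11.5, against 14808, 14097 and 13779 at E10.5, a difference that an exact two-sided permutation test did not separate (p = 0.2, with 0.1 the smallest possible). Over the probes tested, E11.5 arrays correlated with each other at 0.973 to 0.987 and E10.5 arrays at 0.989 to 0.993, and arrays of different stages at 0.937 to 0.962. Over all probes, E11.5 replicate 3 stood apart, with rank correlations of 0.694 to 0.715 to the other arrays, against 0.827 to 0.877 among those 5. The median SD over genes was 0.18 log2 units at E11.5 and 0.12 at E10.5, and 66.9% of genes had the larger SD at E11.5. Single embryos and pools differ in this respect by design, and the part of pooling in the spread was not tested.

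Of 7983 genes tested, 2875 were called different between the stages, 36% of them, at a Benjamini-Hochberg adjusted p under 0.05 in limma. At E11.5, 1052 genes were higher (13.2%) and 1823 were lower (22.8%), and 201 of the higher and 260 of the lower genes differed by more than 2-fold. The shares of 13.2% and 22.8% are the background for every count of called list or family members below. The replicates of the stages did not overlap for 48.9% of all genes tested. The median difference over all genes was -0.10 on the log2 scale, and differences are given below as E11.5 minus E10.5 with their SE, on the log2 scale of the normalized signal. Another 3353 probes without a single gene symbol were tested alike, and 682 of them were higher and 327 lower at E11.5. Without E11.5 replicate 3 the counts were 1153 higher and 1992 lower, and without E10.5 replicate 1 they were 843 and 1340. In a model of all 18 arrays with 1 round of amplification, which takes its error from the other stages too, 430 genes were higher and 767 lower, 146 of the 339 genes followed by name lost their call and 48 of the 64 list counts moved by more than 1.5 times, so many of the calls and counts given below were not kept there. A bulk measurement cannot tell fewer cells of a kind from less RNA per cell.

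**Figure D1:**
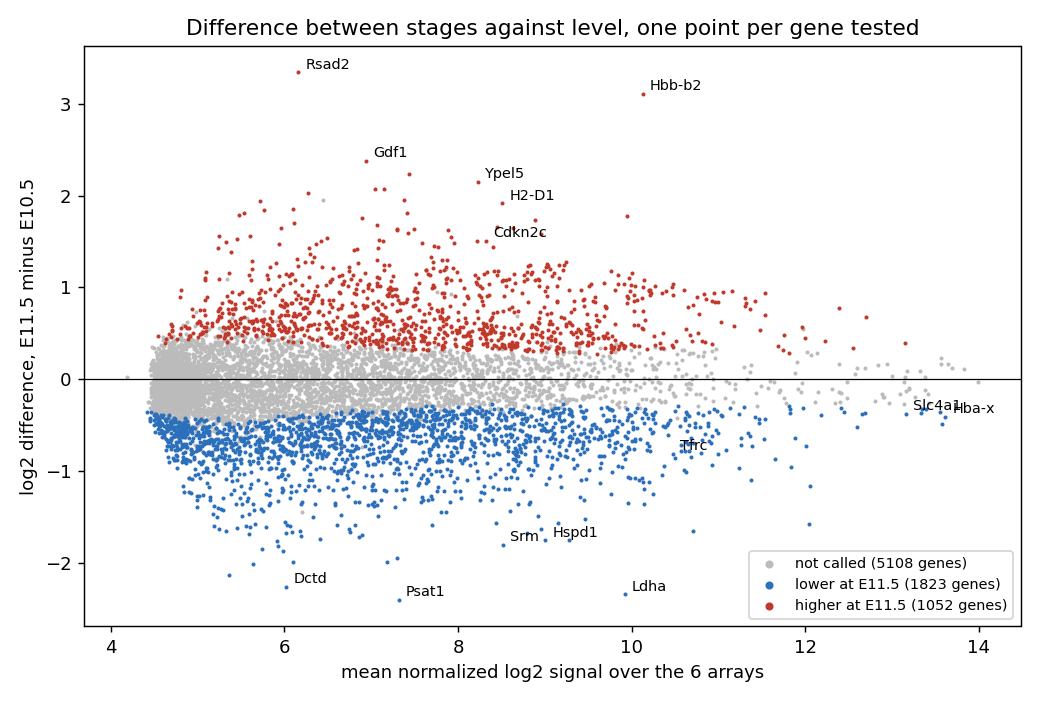
Difference between stages (vertical axis, log2, E11.5 minus E10.5) against the mean normalized log2 signal over the 6 arrays (horizontal axis), with 1 point for each of the 7983 genes tested. Red points are the 1052 genes higher and blue points the 1823 genes lower at E11.5, grey points were not called, and calls lie across the range of signal.

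The largest increase among genes measured at both stages was that of Hbb-b2, the minor adult beta globin. Its normalized log2 signal was 11.81, 11.43 and 11.81 at E11.5, against 6.60, 10.24 and 8.88 at E10.5. The E11.5 embryos were close to each other while the E10.5 pools spread widely, and the groups did not overlap (3.11 ± 0.63, adjusted p = 0.00241, limma). Without E10.5 replicate 1 its difference was 2.13, below that of Gdf1. Adult beta globin genes are near-identical copies, so which of their transcripts a probe reads is uncertain. Gdf1, a secreted factor of the TGF-beta family that is transcribed on one message with the ceramide synthase gene Cers1, had 8.24, 8.07 and 8.08 at E11.5 and 5.82, 5.94 and 5.50 at E10.5. All E11.5 values lay far above all E10.5 values (2.38 ± 0.14, adjusted p = 3.58e-06). A probe for this message cannot tell the 2 proteins' reading frames apart.

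Both Ypel5 and Ypel4, members of the YPEL family of small zinc-binding proteins, rose about 4-fold. Ypel5, a subunit of the CTLH ubiquitin ligase, had 9.48, 9.33 and 9.10 at E11.5 and 7.14, 7.23 and 7.09 at E10.5 (2.15 ± 0.12, adjusted p = 3.58e-06), and its other probe rose by 1.58. Ypel4 had 8.25, 8.32 and 7.98 at E11.5 and 5.87, 6.23 and 6.24 at E10.5 (2.07 ± 0.14). The stages were separated in both genes, and Ypel3 rose by 0.85 ± 0.21, so 3 of the 4 tested members of the family were higher and none was lower.

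Further large increases touched the cell surface, the cell cycle and enzymes. Ackr1, the Duffy chemokine-binding protein of red cells, had 7.48, 7.38 and 6.99 at E11.5 and 5.17, 5.09 and 5.51 at E10.5 (2.03 ± 0.17). Ccng2, a cyclin of quiescent cells, had 6.79, 7.03 and 7.24 at E11.5 and 5.07, 5.09 and 5.35 at E10.5 (1.85 ± 0.16). Neither gene's groups overlapped. Slc27a5, an acyl-CoA synthetase of fatty and bile acids, rose by 1.85 ± 0.17, Slfn14, an endoribonuclease that acts on ribosomes, by 1.79 ± 0.20, and Gdpd3, a lysophospholipase D, by 1.95 ± 0.39. Sirt3, a mitochondrial deacetylase, rose by 2.24 ± 0.31, Fn3k, which removes sugars from glycated proteins such as hemoglobin, by 2.07 ± 0.31, and Mkrn1, a ubiquitin ligase, by 1.81 ± 0.14. For these last 3 genes the dimmer probes disagreed: the differences there were 0.27 for Sirt3, -0.07 for Fn3k, and 0.47 and 0.07 for Mkrn1, none of them called. Such disagreement was common: of 2107 genes with more than 1 tested probe, 839 had both called and uncalled probes and 31 were called in both directions. Among genes named below without their other probes, Asns, Atg4d, Atp5k, Ccne1, Cdca8, Ell2, Fdps, H4c8, Hdac5, Heatr1, Igf2bp3, Ikzf1, Ipo4, Ipo7, Lmna, Mrpl47, Osm, Pink1, Rnf10, Rpl38, Smc4 and Tmpo each had a probe that was not called.

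Among 11 genes that were higher at E11.5 and detected on no E10.5 array, the 5 with the largest bound were Rsad2, at least 10.2-fold higher (at least 5.23-fold without E11.5 replicate 2), Ackr3, a scavenging chemokine receptor, at least 2.96-fold, Supt20, a subunit of the SAGA coactivator, at least 1.97-fold, Nrbp2, a pseudokinase, at least 1.86-fold, and Bcl6b, a transcriptional repressor, at least 1.49-fold. Each bound sets the E11.5 mean against the higher of the dim signal and the detection floor at E10.5. In these 5 genes the bound equals the measured fold. It allows for dim signal and not for sampling error or processing. The log2 difference of Ackr3 was 1.57 here and as low as 0.65 among the alternatives run. The call of Bcl6b was lost without E10.5 replicate 2 (adjusted p = 0.0811). The 11 genes were tested only because all 3 E11.5 arrays detected them, so the filter on detection itself favoured their calls.

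The 3 largest decreases were those of metabolic enzymes. Psat1, which makes serine from a glycolytic intermediate, had 6.26, 5.97 and 6.12 at E11.5 and 8.80, 8.40 and 8.36 at E10.5. The 3 single embryos lay well below the 3 pools (-2.41 ± 0.14, adjusted p = 3.58e-06), and the other Psat1 probe fell by 1.18. Ldha, the lactate dehydrogenase subunit that ends anaerobic glycolysis, had 8.82, 8.70 and 8.71 at E11.5 and 11.51, 10.999 and 10.76 at E10.5, again with no overlap (-2.35 ± 0.16, adjusted p = 8.11e-06). Dctd, the deoxycytidylate deaminase that feeds thymidylate synthesis, had 4.87, 4.59 and 5.21 at E11.5 and 7.55, 7.10 and 6.80 at E10.5 (-2.26 ± 0.21).

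Mthfd1, a folate enzyme, had 5.64, 4.84 and 4.83 at E11.5 and 7.19, 7.04 and 7.06 at E10.5 (-1.99 ± 0.21). Srm, the spermidine synthase, had 7.53, 7.61 and 7.71 at E11.5 and 9.73, 9.31 and 9.23 at E10.5 (-1.80 ± 0.13), and its other probe fell by 2.18. Hspd1, the mitochondrial chaperonin HSP60, had 7.95, 8.35 and 8.06 at E11.5 and 10.42, 9.74 and 9.49 at E10.5 (-1.76 ± 0.20). All 3 genes separated the stages, with E10.5 replicate 1 the highest array in each. The other named decreases were Ccdc86 (-1.95 ± 0.19), a protein of the nucleolus and mitotic chromosomes, C1qbp (-1.75 ± 0.15), a protein of the mitochondrial matrix, Hnrnpa1 (-1.74 ± 0.32), a splicing regulator, Egfl7 (-1.82 ± 0.16), a secreted protein best known from endothelium, Mcrip2 (-1.99 ± 0.16) and 2010204K13Rik (-1.85 ± 0.23).

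Some decreases rested on uneven measurements. Ltbp2, a latent TGF-beta binding protein, had 4.72, 4.86 and 4.32 at E11.5 and 7.69, 5.03 and 7.21 at E10.5 (-2.01 ± 0.51). E10.5 replicate 2 lay near the E11.5 level, and the call was lost when arrays were weighted by their quality (adjusted p = 0.123). Angptl4, an inhibitor of lipoprotein lipase, fell by 1.87 ± 0.19 with a difference of -0.44 at another probe that was not called, and Bdh1, an enzyme of ketone body use, fell by 1.76 ± 0.26 with an uncalled difference of 0.15 at its other probe.

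Of 124 genes that were lower and detected on no E11.5 array, the 5 with the largest bound were Ttc27, at least 4.39-fold lower, Cops8, a subunit of the COP9 signalosome, at least 3.16-fold, Tfb1m, a methyltransferase of mitochondrial ribosomal RNA, at least 3.09-fold, Slc25a26, the mitochondrial carrier of S-adenosylmethionine, at least 3.04-fold, and Wdr4, a subunit of a transfer RNA methyltransferase, at least 2.77-fold. These bounds too equal the measured folds. Cops8 had 4.47, 4.43 and 4.60 at E11.5 and 4.61, 7.22 and 6.65 at E10.5. The first E10.5 pool sat at the E11.5 level, and the call was lost without E11.5 replicate 1 (adjusted p = 0.068) or replicate 2 (adjusted p = 0.0561). All 124 genes were tested only because the 3 E10.5 arrays detected them, so the filter favoured these calls too.

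**Figure D2:**
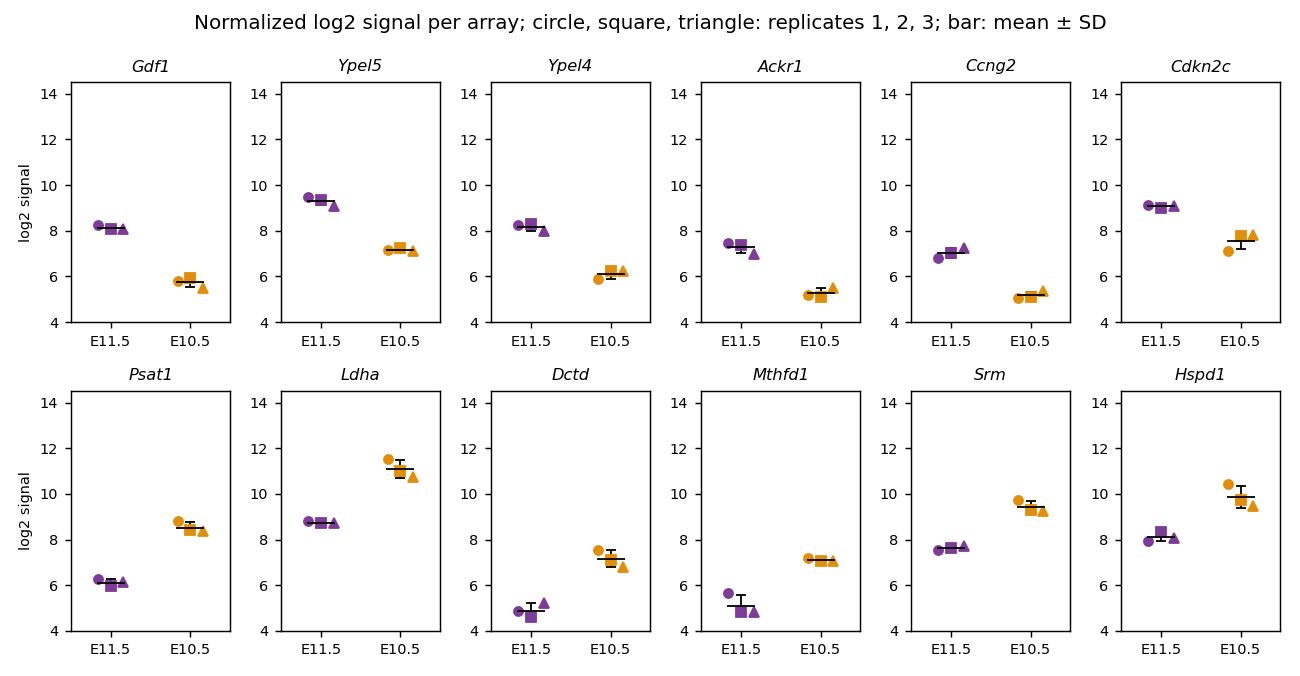
Normalized log2 signal (vertical axis) on each of the 3 E11.5 arrays (purple) and 3 E10.5 arrays (orange) for 12 genes, with circles, squares and triangles for replicates 1, 2 and 3 and bars for mean ± SD. The upper row holds increases, such as Gdf1, and the lower row decreases, such as Ldha at 8.70 to 8.82 in E11.5 against 10.76 to 11.51 in E10.5, and no panel shows an overlap of the stages.

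The promoters of the 2 largest increases and the 2 largest decreases that could be matched are shown as the DNA next to the start of the genes that differed most. They run from 250 bases before to 50 after the start, 5′ to 3′ on the gene's strand, from RefSeq on GRCm38.p6: Gdf1 at chr8:70315525-70315824 (plus strand), Sirt3 at chr7:140882260-140882559 (minus), Psat1 at chr19:15925010-15925309 (minus) and Ldha at chr7:46845554-46845853 (plus). Capitals mark matches, on either strand, to the motifs searched.
Gdf1: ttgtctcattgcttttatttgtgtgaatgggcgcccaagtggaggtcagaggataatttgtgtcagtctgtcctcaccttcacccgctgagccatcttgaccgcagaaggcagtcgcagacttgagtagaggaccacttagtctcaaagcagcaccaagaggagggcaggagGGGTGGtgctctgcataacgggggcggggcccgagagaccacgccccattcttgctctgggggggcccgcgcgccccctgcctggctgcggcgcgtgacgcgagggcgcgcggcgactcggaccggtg
Sirt3: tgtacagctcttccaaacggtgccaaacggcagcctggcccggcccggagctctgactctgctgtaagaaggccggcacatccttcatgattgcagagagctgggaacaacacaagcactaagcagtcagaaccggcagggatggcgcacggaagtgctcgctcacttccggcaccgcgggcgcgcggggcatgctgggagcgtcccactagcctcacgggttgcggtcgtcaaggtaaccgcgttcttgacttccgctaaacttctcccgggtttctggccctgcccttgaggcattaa
Psat1: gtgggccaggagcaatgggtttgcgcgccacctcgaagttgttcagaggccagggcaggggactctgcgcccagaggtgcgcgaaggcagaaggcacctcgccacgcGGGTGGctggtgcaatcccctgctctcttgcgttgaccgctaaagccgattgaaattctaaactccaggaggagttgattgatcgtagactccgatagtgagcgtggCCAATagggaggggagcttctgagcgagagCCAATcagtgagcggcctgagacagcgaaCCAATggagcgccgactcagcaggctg
Ldha: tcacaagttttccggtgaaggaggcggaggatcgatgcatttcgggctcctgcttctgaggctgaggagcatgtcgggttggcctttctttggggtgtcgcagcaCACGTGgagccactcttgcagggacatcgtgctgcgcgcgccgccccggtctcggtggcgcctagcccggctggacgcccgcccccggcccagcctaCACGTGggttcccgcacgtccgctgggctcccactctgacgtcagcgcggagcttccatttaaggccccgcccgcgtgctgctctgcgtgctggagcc
For GATA factors the motif searched was AGATAA. For Kruppel-like factors it was CCACCC. The E-box was searched as CACGTG, and the E2F motif as TTTGGCGC or TTTCGCGC. The other motifs were the CCAAT box and, for NFE2 and MAF factors, TGACTCAGC, and none of these overlaps another in the windows shown. The Gdf1 promoter held 1 Kruppel-like match, at -78 from the start, and the Sirt3 window held none of the motifs. Psat1 held 1 Kruppel-like match and 3 CCAAT boxes, and Ldha held 2 E-boxes. A match is a string of letters and not a measured site.

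Motif shares were counted over all genes with a promoter in the table. CACGTG was found in 9.15% of 852 promoters of genes higher at E11.5, in 13.7% of 1539 of genes lower at E11.5, in 687 of 6555 of all genes tested and in 7.24% of all 27025 promoters. AGATAA was found in 8.22% of the higher, 5.2% of the lower and 6.88% of all genes tested, against 11.4% of all promoters. CCACCC stood at 39.2%, 32.8% and 35.5% in the same sets, against 30.9% of all promoters, CCAAT at 41.1%, 40.5% and 39.4%, against 37.9%, the E2F motif at 2%, 2.34% and 1.77%, against 0.833%, and TGACTCAGC at 0.352%, 0.39% and 0.336%, against 0.426%. These shares are descriptions, and no test was made of them.

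Genes for building ribosomes were lower at E11.5 almost throughout. Of 42 tested genes of ribosome assembly and the nucleolus, 39 were lower and none was higher, with a median difference of -1.13 against -0.10 over all genes. Ddx18, an RNA helicase of the nucleolus, had 7.97, 7.80 and 7.87 at E11.5 and 9.52, 9.30 and 9.12 at E10.5 (-1.43 ± 0.12, adjusted p = 1.76e-05). Its stages were clearly apart. Heatr1, which promotes transcription of ribosomal DNA, fell by 1.36 ± 0.12, Gnl3, the nucleolar GTPase nucleostemin, by 1.25 ± 0.11, and Nhp2, a core protein of the particles that pseudouridylate ribosomal RNA, by 1.25 ± 0.10. In 36 of the 39 lower genes (92.3%), E10.5 replicate 1 was the array farthest from E11.5, against 63.2% of all 1823 lower genes. That pool also had the lowest correlations with the E11.5 arrays, 0.937 to 0.948, against 0.952 to 0.962 for the other pools, and without it 37 of 41 tested genes of the list were lower. Among the 36 of these genes with a promoter, 19.4% held CACGTG and 0 held AGATAA.

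The decrease was uneven across the rest of the translation apparatus. Of 68 mitochondrial ribosomal protein genes, 54 were lower and none was higher (median -0.62), with Mrps18b at -1.22 ± 0.12, Mrpl47 at -1.19 ± 0.13 and Mrps5 at -1.04 ± 0.11, though of the dimmer Mrps5 probes 1 rose by 0.76. Of 43 translation factors, 28 were lower and 3 higher (median -0.59). Eif4ebp1, which restrains cap-dependent initiation when unphosphorylated, had 8.15, 8.06 and 8.22 at E11.5 and 9.996, 9.76 and 9.57 at E10.5 (-1.63 ± 0.12), with no overlap. The release factors Gspt1 and Etf1 fell by 1.12 ± 0.11 and 1.07 ± 0.11, and Eif2b1, a subunit of the eIF2 exchange factor, by 1.16 ± 0.14, while Eef2k, the kinase that slows elongation, rose by 0.50 ± 0.12.

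Cytosolic ribosomal protein genes, whose proteins make up the ribosome itself, moved less: 19 of 49 were lower and 2 higher, and their median was -0.25. Rps19, a protein of the small subunit, was detected on no E11.5 array and was at least 2.41-fold lower at this probe, and Rpl38, Rpl27a and Rpl13a of the large subunit fell by 0.84, 0.71 and 0.62, while the dimmer Rpl27a probe rose by 0.37. Rpl9, also of the large subunit, rose by 0.39 ± 0.10. These genes have many near-identical pseudogene copies, so a probe may read more than its own gene.

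More genes were lower than higher in the lists of splicing, transcription and nuclear transport. Of 53 splicing factor and hnRNP genes 31 were lower and none higher (median -0.48), among them Snrpd3, a core spliceosome protein (-1.19 ± 0.14), Snrpa of the U1 particle (-0.79 ± 0.11) and the splicing regulator Srsf1 (-0.76 ± 0.11). Of 32 genes of the RNA polymerases and general factors 15 were lower (46.9%) and 3 higher (9.4%), beside 22.8% and 13.2% over all genes. Polr2h, a subunit shared by the polymerases, was at -1.16 ± 0.18. Ell2, an elongation factor, rose by 0.95 ± 0.14. Of 48 nuclear transport genes 22 were lower (45.8%) and 3 higher (6.25%). The importins differed in direction: Ipo4 fell by 1.02 ± 0.15 and Ipo5 by 0.84 ± 0.12, while Ipo7 rose by 0.83 ± 0.11.

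Enzymes that supply building blocks were among the genes that fell most. In the serine, one-carbon and polyamine list, 11 of 18 were lower and 1 higher (median -0.51), led by Psat1, Mthfd1 and Srm, with Umps, the last enzyme of uridine monophosphate synthesis, at -1.22 ± 0.13. The one that rose was Oaz1 (0.37 ± 0.12), the antizyme that restrains polyamine synthesis, and its call was lost without E10.5 replicate 1 (adjusted p = 0.0754), E10.5 replicate 3 (0.0638) or E11.5 replicate 3 (0.0993). Of 17 cholesterol genes, 10 were lower and none higher (median -0.52), including Msmo1 (-1.34 ± 0.13), Lss (-1.21 ± 0.17), Sqle (-0.91 ± 0.11) and Fdps (-0.87 ± 0.10), enzymes along the pathway. The dimmer Lss probe went the other way and rose by 0.57. Asns, the asparagine synthetase, fell by 0.96 ± 0.12.

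Energy metabolism was mixed. Of 23 glycolysis and glucose transport genes 10 were lower and 4 higher (median -0.16). The decreases included Ldha, Pkm (-1.32 ± 0.13), the pyruvate kinase form of growing tissues, Tpi1 (-1.02 ± 0.12) and Pfkl (-0.84 ± 0.10). Pklr, the pyruvate kinase of red cells, fell as well (-0.34 ± 0.10), a call lost in 8 of 21 alternatives. The increases included Txnip (1.13 ± 0.17), an inhibitor of thioredoxin and of glucose uptake, Slc2a4 (0.76 ± 0.16), the glucose transporter GLUT4, and Hk1 (0.55 ± 0.12), the hexokinase of red cells. Bpgm, which makes the 2,3-bisphosphoglycerate that lowers oxygen affinity of hemoglobin, had 8.69, 8.78 and 8.65 at E11.5 and 7.93, 7.80 and 7.61 at E10.5 (0.92 ± 0.11), with no overlap, while its other probe was not called (-0.11).

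In mitochondria, 12 of 22 tricarboxylic acid cycle genes were lower and 1 higher (median -0.51), with Idh2 at -0.97 ± 0.16 and Suclg1 at -0.88 ± 0.12. Of 65 respiratory chain and ATP synthase genes, 26 were lower and 3 higher, and their median of -0.19 was close to that of all genes. Cox5a, a cytochrome oxidase subunit, fell by 1.10 ± 0.11 and Atp5k, an ATP synthase subunit, rose by 0.73 ± 0.14. Without E11.5 replicate 1, 17 of the respiratory genes were lower.

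Protein folding and degradation went in both directions. Of 37 heat shock and chaperone genes 19 were lower and 6 higher (median -0.46). Hspa9, the mitochondrial HSP70, fell by 1.22 ± 0.11, and Cct4 and Cct3, subunits of the cytosolic chaperonin, by 1.05 ± 0.13 and 0.94 ± 0.11. Dnajb2, a co-chaperone, rose by 1.17 ± 0.17. The number higher was 3 without E10.5 replicate 2 or E10.5 replicate 3 and 2 without E11.5 replicate 1. Of 38 proteasome genes 21 were lower and 2 higher (median -0.38), among them Psma3 (-0.99 ± 0.11), a core subunit, Psmd3 (-0.94 ± 0.11), a regulatory subunit, and Pomp (-0.86 ± 0.11), the assembly factor.

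Of 34 ubiquitin pathway genes 8 were higher (23.5%) and 6 lower (17.6%), with a median of 0.04, beside 13.2% and 22.8% over all genes. Ube2l6 had 9.81, 10.07 and 9.49 at E11.5 and 8.51, 8.60 and 8.51 at E10.5 (1.25 ± 0.13), and is a conjugating enzyme of ubiquitin and of the interferon-induced modifier ISG15. Ube2h, the conjugating enzyme that works with the CTLH ligase, rose by 1.23 ± 0.15, and the ligase genes Rnf123 and Rnf10 by 0.99 ± 0.14 and 0.81 ± 0.11. Of 32 autophagy and mitochondrial clearance genes 10 were higher (31.25%) and 3 lower (9.4%), with a median of 0.11. Among the higher were Atg4d (1.01 ± 0.15), a protease that processes ATG8 proteins, Sqstm1 (0.91 ± 0.12), the cargo receptor p62, Ulk1 (0.88 ± 0.19), the kinase that starts autophagy, and Pink1 (0.88 ± 0.19), a mitochondrial damage sensor. Bnip3l, the receptor for mitochondrial removal in red cells, had 9.62, 9.32 and 9.45 at E11.5 and 9.30, 9.16 and 9.20 at E10.5, and was not called (0.24 ± 0.10, adjusted p = 0.091), though it passed with cyclic loess normalization (0.0469) and with array weights (0.0122).

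Cell cycle genes split by role. Of 15 tested CDK inhibitors and cell cycle exit genes, 7 were higher and none lower (median 0.67). Cdkn2d, the inhibitor p19, had 8.08, 8.16 and 8.10 at E11.5 and 6.15, 6.58 and 6.70 at E10.5 (1.64 ± 0.15, adjusted p = 2.28e-05). Cdkn2c, the inhibitor p18, had 9.13, 9.0 and 9.09 at E11.5 and 7.13, 7.75 and 7.83 at E10.5 (1.51 ± 0.16). Both separated the stages, and of the dimmer Cdkn2c probes one rose by 1.93 and the other was not called (-0.11). Rb1, the retinoblastoma protein, rose by 1.10 ± 0.13 and Cdkn1c, the inhibitor p57, by 0.71 ± 0.16. Cdkn1b, the inhibitor p27, was not tested because its probes were too dim.

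Among cyclins and their kinases 5 of 22 were higher (22.7%) and 6 lower (27.3%), beside 13.2% and 22.8% over all genes. Cdk4, the kinase of the D cyclins, fell by 0.90 ± 0.12 and Ccne1, cyclin E1, by 0.87 ± 0.13, while Cks2, an adaptor of mitotic kinases, rose by 1.07 ± 0.14 and Ccnl1, a cyclin of splicing kinases, by 1.41 ± 0.13 at its brightest probe, with uncalled differences of 0.11 and 0.36 at its others. Without E11.5 replicate 1, 3 were higher. Ccnd3, the main D cyclin of erythroid cells, had 10.01, 10.38 and 10.05 at E11.5 and 9.59, 9.97 and 10.16 at E10.5, with overlap, and was not called (0.24 ± 0.15).

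DNA replication genes tended down and mitosis genes up. Of 44 replication genes 24 were lower and 2 higher (median -0.35), including Rfc4, a clamp loader subunit (-0.98 ± 0.10), Pold2 and Pold1, subunits of DNA polymerase delta (-0.83 ± 0.15 and -0.66 ± 0.11), and Rpa3 (-0.63 ± 0.11) of the single-strand binding complex. This count was 15 without E10.5 replicate 2, 14 without E10.5 replicate 3 and 15 without E11.5 replicate 1, and 2 in the model of 18 arrays. Of 44 mitosis and cytokinesis genes 11 were higher (25%) and 3 lower (6.8%), beside 13.2% and 22.8% over all genes (median 0.09 in the list). They included Smc4 (0.83 ± 0.14), a condensin subunit, Cdca8 (0.71 ± 0.11), borealin of the chromosomal passenger complex, and Cenpe (0.64 ± 0.11), a kinetochore motor, all higher.

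Replication-dependent histone genes were mostly higher: of 40 tested, 22 were higher and 1 lower (median 0.47). Their summed background-corrected signal did not rise, at 88222 to 97840 at E11.5 and 89325 to 98213 at E10.5 over 47 genes with a named probe. H2ac18, an H2A gene, had 8.52, 8.47 and 8.06 at E11.5 and 6.64, 6.08 and 6.46 at E10.5 (1.96 ± 0.17). H1f2, a linker histone, had 8.46, 8.44 and 8.44 at E11.5 and 6.98, 6.89 and 7.12 at E10.5 (1.45 ± 0.11). The stages did not overlap in either gene, and H4c8 and H4c12 rose by 1.36 ± 0.14 and 1.18 ± 0.13. The single decrease was that of H2ac20 (-0.49 ± 0.10), whose signal was 13.28 to 13.39 at E11.5 and 13.73 to 13.89 at E10.5, and its dimmer probe rose by 1.19. Copies of a histone gene are nearly identical, which makes the assignment of a signal to a single copy uncertain.

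Genes of chromatin and of the nuclear envelope were split. Of 12 variant histone and nucleosome-binding genes 5 were lower (41.7%) and 3 higher (25%), beside 22.8% and 13.2% over all genes. Hmgn1, a nucleosome-binding protein that keeps chromatin open, had 9.87, 9.74 and 10.02 at E11.5 and 11.66, 11.55 and 11.39 at E10.5 (-1.66 ± 0.11, adjusted p = 8.07e-06), while its dimmer probe was not called (-0.11). Macroh2a1 fell by 1.25 ± 0.19 and H2ax rose by 0.71 ± 0.15. In the lamina list 5 of 17 were higher (29.4%) and 4 lower (23.5%), beside 13.2% and 22.8% over all genes. Sun2 (0.87 ± 0.17), which ties the nucleus to the cytoskeleton, Tmpo (0.84 ± 0.12) and Lmna (0.60 ± 0.13) were among the higher and Banf1 (-0.82 ± 0.11) among the lower. Without E11.5 replicate 3, 8 were higher, and without E11.5 replicate 1, 2 were lower. Hdac5, a histone deacetylase, rose by 0.55 ± 0.15, a call lost without E10.5 replicate 1 (adjusted p = 0.053). Dnmt3b, a DNA methyltransferase of early development, fell by 1.30 ± 0.23.

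The globin genes were read at their brightest probes first. Hba-x, the embryonic zeta globin, had 13.30, 13.49 and 13.44 at E11.5 and 13.89, 13.78 and 13.78 at E10.5. All E11.5 values were lower (-0.41 ± 0.11, adjusted p = 0.0103). Hba-a1, adult alpha globin, differed by -0.33 ± 0.11 (adjusted p = 0.0313), a call that was lost without E10.5 replicate 2 (adjusted p = 0.088), E10.5 replicate 3 (0.0605), E11.5 replicate 1 (0.0843) or E11.5 replicate 3 (0.0661). Hbb-bh1, the embryonic beta-like globin, had 13.19, 13.09 and 13.38 at E11.5 and 13.04, 13.04 and 13.31 at E10.5, with overlap, and was not called (0.09 ± 0.12). Hbq1b, a theta globin gene, had 11.09, 11.02 and 10.87 at E11.5 and 9.87, 9.81 and 10.19 at E10.5, and rose by 1.04 ± 0.12 (adjusted p = 6.19e-05).

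The brightest probes of the adult beta globins Hbb-bs and Hbb-bt were not called (0.23 ± 0.15 and 0.12 ± 0.11). Their 10 probes disagreed. A dimmer Hbb-bs probe had 12.64, 12.57 and 12.69 at E11.5 and 9.87, 10.32 and 9.82 at E10.5 (2.63 ± 0.13), and a dimmer Hbb-bt probe rose by 0.90 ± 0.20. The bright globin probes lay near the top of the signal range of every array, at 13.04 or more for Hbb-bs.

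Gata1 had 8.12, 8.09 and 8.18 at E11.5 and 7.71, 7.84 and 7.97 at E10.5. The groups did not overlap, and the difference of 0.29 ± 0.11 missed the threshold (adjusted p = 0.0539), which it passed without E10.5 replicate 3 (adjusted p = 0.0462), with array weights (0.0402), with cyclic loess (0.0261) and among probes detected on all 6 arrays (0.0486). Klf1 had 11.58, 11.48 and 11.82 at E11.5 and 11.51, 11.84 and 11.62 at E10.5, with overlap (-0.03 ± 0.12). Tal1, a partner of Gata1, was not called (0.30 ± 0.12, adjusted p = 0.0699), though it passed with array weights (0.0187), with cyclic loess (0.0435), among probes detected on all 6 arrays (0.0496) and without E11.5 replicate 2 (0.0301). Of the 18 tested erythroid transcription factors 6 were higher (33.3%) and 3 lower (16.7%), beside 13.2% and 22.8% over all genes. Nfe2, an activator of globin genes, rose by 0.74 ± 0.15, Zbtb7a, a repressor of embryonic and fetal globin genes, by 0.72 ± 0.11 at its brightest probe (the other fell by 0.60) and Ikzf1 by 0.51 ± 0.12, and Sox6, a repressor of embryonic globin genes, fell by 0.78 ± 0.19.

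Tfrc, the transferrin receptor that brings in iron, had 10.08, 10.19 and 9.95 at E11.5 and 10.81, 10.78 and 11.06 at E10.5 (-0.81 ± 0.11), with no overlap. Slc40a1, the iron exporter ferroportin, rose by 0.85 ± 0.19 and Slc11a2, which moves iron out of endosomes, by 0.45 ± 0.13. In all, 2 of 13 iron genes were higher (15.4%) and 3 lower (23.1%), shares close to those over all genes, Fth1 (ferritin heavy chain) and Pcbp1 (an iron chaperone) being the other decreases. The call of Fth1 was lost without E10.5 replicate 3 (adjusted p = 0.0576) or E11.5 replicate 1 (0.0676). Of 12 heme synthesis genes 4 were higher (33.3%) and 1 lower (8.3%), beside 13.2% and 22.8% over all genes, and Alas2 was not called (0.13 ± 0.12).

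Red cell surface and membrane skeleton genes moved mainly up. Of 19 surface and blood group genes 9 were higher and 2 lower (median 0.29), led by Ackr1. Cd47, the signal that protects red cells from phagocytes, had 8.64, 8.21 and 8.61 at E11.5 and 6.98, 7.20 and 6.96 at E10.5 (1.44 ± 0.14), and its other probe rose by 0.98. Kel, the Kell blood group protease, rose by 0.81 ± 0.09 and Icam4, the Landsteiner-Wiener protein, by 0.59 ± 0.11. Slc4a1 had 13.01, 12.97 and 12.95 at E11.5 and 13.30, 13.50 and 13.25 at E10.5, and fell by 0.37 ± 0.11 (adjusted p = 0.0168), a call lost without E10.5 replicate 2 (adjusted p = 0.0846). Of 12 membrane skeleton genes 4 were higher and none lower (median 0.26), with the adducins Add1 (0.94 ± 0.13) and Add2 (0.92 ± 0.11) and beta spectrin, Sptb (0.67 ± 0.12). The dimmer adducin probes were not called, at 0.11 and 0.14 for Add1 and -0.29 for Add2.

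Signalling, survival and stress genes gave single large changes. Bcl2l1, the survival protein BCL-XL, had 7.41, 7.4 and 7.14 at E11.5 and 6.03, 6.32 and 6.32 at E10.5 (1.09 ± 0.14), and both its other tested probes rose, by 0.85 and 0.80. Epor had 8.70, 8.42 and 8.63 at E11.5 and 8.10, 8.52 and 8.51 at E10.5 and was not called (0.21 ± 0.13), though its dimmer probe rose by 0.71. Socs3, an inhibitor of JAK signalling, rose by 1.14 ± 0.13 and Osm, the cytokine oncostatin M, by 1.01 ± 0.13. Foxo3, a transcription factor of late erythroid maturation, rose by 0.96 ± 0.16 at its brightest probe and was not called at the other (0.09).

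Myc, the growth-promoting transcription factor, had 5.52, 5.69 and 5.16 at E11.5 and 5.69, 5.94 and 5.82 at E10.5 and was not called (-0.36 ± 0.18, adjusted p = 0.137). Mxd1, Mxd3 and Mxi1, which compete with it for the partner MAX, rose by 1.47 ± 0.18, 1.15 ± 0.25 and 0.60 ± 0.16. Nqo1, an oxidoreductase of the NRF2 response, rose by 1.5 ± 0.14, and Kdm3a and Egln3, hypoxia-inducible genes, by 1.07 ± 0.11 and 0.92 ± 0.12. Of 15 hypoxia genes 4 were higher (26.7%) and 1 lower (6.7%), beside 13.2% and 22.8% over all genes. Ldha and Pkm, which are also targets of hypoxia signalling, fell. Of 9 tested immediate early genes 5 were higher (55.6%) and none lower (median 0.58), with Ier3 at 1.28 ± 0.15, Zfp36 at 0.79 ± 0.14 and Dusp1 at 0.70 ± 0.11. Among imprinted and fetal genes, Peg3 rose by 1.33 ± 0.18, with an uncalled 0.32 at its other probe, and Igf2, Igf2bp1 and Igf2bp3 fell by 0.79 ± 0.18, 1.10 ± 0.18 and 0.82 ± 0.21.

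Some interferon-response genes were higher at E11.5, and their levels differed between single embryos. Type I interferon is a signal that switches on antiviral genes. Of 46 genes of interferon response and antigen presentation 40 had a named probe, 15 of them were detected on no array and 18 were tested, and 7 were higher and none lower (median 0.52). Rsad2, the antiviral protein viperin, had 7.20, 9.75 and 6.54 at E11.5 and 4.48, 4.52 and 4.45 at E10.5, where no array detected it (adjusted p = 0.000949). It was tested only because the 3 E11.5 arrays detected it, the stage where it was high. All E11.5 embryos lay above all pools, and the second embryo stood highest.

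Irf9, a transcription factor of the interferon response, had 6.90, 8.0 and 5.96 at E11.5 and 5.27, 5.18 and 5.32 at E10.5 (1.70 ± 0.37, adjusted p = 0.00379). Eif2ak2, the kinase PKR that halts translation on double-stranded RNA, had 7.38, 7.95 and 5.96 at E11.5 and 5.46, 5.75 and 5.68 at E10.5 (1.47 ± 0.37). In both genes the third embryo stood nearest to the pools. Irf7, which amplifies interferon transcription, rose by 1.08 ± 0.28 and Adar, an RNA-editing enzyme with an interferon-induced form, by 0.91 ± 0.27 (0.30 and not called at its other probe). The class I antigen genes H2-D1 and H2-T23 rose by 1.92 ± 0.24 and 1.81 ± 0.35, and copies of such genes are alike enough that their probes may read more than 1 of them. Bst2, the antiviral protein tetherin, had 7.65, 9.5 and 5.14 at E11.5 and 6.02, 5.19 and 5.19 at E10.5. Its stages overlapped and it was not called (1.96 ± 0.76, adjusted p = 0.0647). Irf7, Adar, B2m and Bst2 were chosen after their values were seen.

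The second E11.5 embryo was the highest of the 3 in 13 of the 18 tested genes (72.2%), against 34.8% of all genes tested and 42.8% of all genes called higher. The order of embryo 2, then 1, then 3 held in 12 of the 18 (66.7%), against 23.4% of all genes and 25.9% of those called higher. H2-D1 did not follow it, with 9.64, 9.37 and 9.40 at E11.5 and 7.65, 6.87 and 8.13 at E10.5. Without E11.5 replicate 1, 4 of the genes were called higher, and Eif2ak2 was lost (adjusted p = 0.0515). Without E11.5 replicate 2, 5 were higher and 2 lower, and without E11.5 replicate 3, 9 were higher. The pools average several embryos, so the levels in single E10.5 embryos are not known here. Each E11.5 embryo is 1 array, and the third had the fewest probes detected (12355), so embryo and array cannot be told apart. The promoter of Rsad2, chosen after its values were seen, holds 1 match to the core of the interferon response element, GAAA blocks 2 bases apart, at -120 from the start. That motif too was added after the data were seen. The window lies at chr12:26456403-26456702 (minus strand, GRCm38.p6, RefSeq), with the match in capitals on the opposite strand:
Rsad2: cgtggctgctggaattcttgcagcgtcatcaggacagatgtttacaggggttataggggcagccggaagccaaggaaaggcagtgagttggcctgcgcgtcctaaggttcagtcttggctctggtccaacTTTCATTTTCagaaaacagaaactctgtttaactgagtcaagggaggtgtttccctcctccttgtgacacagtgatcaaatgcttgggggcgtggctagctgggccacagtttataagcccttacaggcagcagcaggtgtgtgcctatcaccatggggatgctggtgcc
The interferon motif was found in 3 of the 7 promoters of the list's higher genes (42.9%), against 2.75% of the promoters of all genes tested, 3.29% of those of higher genes, 2.08% of those of lower genes and 3.49% of all promoters. The 7 genes come from a list written for interferon response. The share among list members that were not called was not counted, so these shares do not bear on the change between stages.

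**Figure D3:**
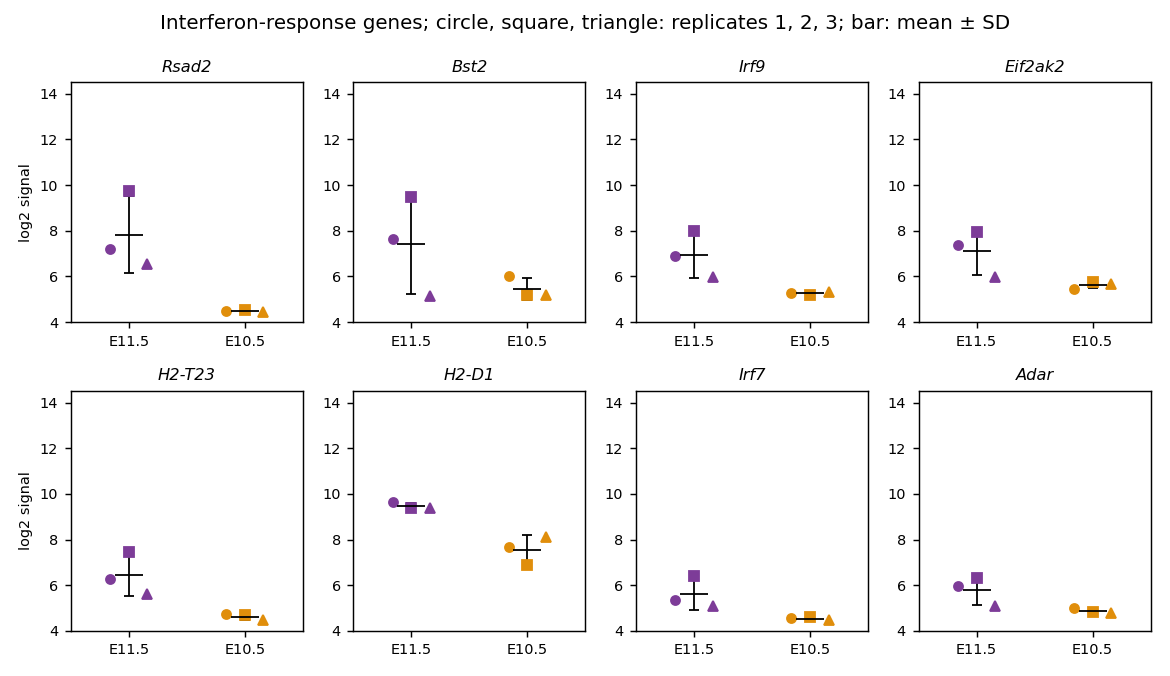
Normalized log2 signal (vertical axis) on each E11.5 array (purple) and E10.5 array (orange) for 8 genes of interferon response and antigen presentation, with circles, squares and triangles for replicates 1, 2 and 3 and bars for mean ± SD. Rsad2 reaches 9.75 in E11.5 replicate 2 against 4.45 to 4.52 at E10.5, and Bst2 is the gene whose stages overlap.

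Markers of other blood and embryo cell types were mostly absent or low. Of 23 macrophage genes with a named probe 18 were detected on no array and 1 was tested, and their summed background-corrected signal was 101 to 119 at E11.5 and 83.0 to 119 at E10.5. Of 16 genes of definitive stem and progenitor cells 11 were detected on no array, with a sum of 66 to 83 at E11.5 and 73.6 to 85.5 at E10.5. Of 17 epithelial and endodermal genes 13 were detected on no array, with a sum of 70.9 to 84.5 at E11.5 and 83.7 to 85.9 at E10.5. These 3 lists thus stayed within like ranges at both stages. Ptprc, the leukocyte antigen CD45, was too dim to be tested.

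The summed signal of 4 other lists was higher at E11.5, and few of their genes were called. Their median differences, in the order below, were 0.03, 0.06, -0.10 and 0.19, beside -0.10 over all genes. The sum of 20 endothelial genes was 1808 to 2167 at E11.5 and 1094 to 1255 at E10.5, with 9 detected on no array. Kdr (a VEGF receptor) rose by 0.85 ± 0.11 and Emcn (endomucin) by 1.13 ± 0.12, while Egfl7 fell, and Cdh5, Pecam1 and Tek, which define endothelium, were too dim to be tested. The sum of 17 mesenchyme genes was 3617 to 3938 at E11.5 and 2022 to 2478 at E10.5, carried mostly by Prrx1, a homeobox gene at 11.69 to 11.83 at E11.5 and 10.71 to 11.03 at E10.5 (0.89 ± 0.11), and 9 were detected on no array. Col5a1, a collagen gene, fell by 0.38 ± 0.11, a call lost in 7 of 21 alternatives, and Col1a1 was too dim to be tested. The sum of 15 megakaryocyte genes was 359 to 437 at E11.5 and 240 to 334 at E10.5, with Vwf (0.87 ± 0.12) and Itga2b (0.58 ± 0.18) higher and 6 detected on no array, and the call of Itga2b was lost without E10.5 replicate 1 (adjusted p = 0.0801), E10.5 replicate 2 (0.0847) or E11.5 replicate 2 (0.0578). The sum of 18 neural and cardiac genes was 235 to 314 at E11.5 and 166 to 203 at E10.5, with Stmn2 (0.77 ± 0.15) and Tubb3 (0.62 ± 0.16) higher and 8 detected on no array. The part of these cells in the other results was not tested.

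Sex-linked genes were read in each sample. Xist, the RNA that coats the inactive X chromosome, had 7.47, 7.29 and 8.15 at E11.5 and 6.45, 6.79 and 6.97 at E10.5 and rose by 0.90 ± 0.21 (adjusted p = 0.0051). Eif2s3y, a Y-linked translation factor, had 5.86, 5.62 and 4.39 at E11.5 and 6.26, 5.90 and 5.24 at E10.5, with overlap, and was not called (-0.51 ± 0.35). The third embryo was highest for Xist and lowest for Eif2s3y at these probes, but every array carried signal from Xist. Eif2s3y was detected on every array but that of the third embryo. The other Xist probe was detected on no array. Uty, a Y-linked gene chosen after its values were seen, was detected on all 6 arrays, with 5.64, 5.54 and 5.04 at E11.5 and 4.86, 4.93 and 5.195 at E10.5. Zfy2, also Y-linked, had 4.84, 4.84 and 4.26 at E11.5 and was detected on every array but that of the third embryo. Tsix, an X-inactivation gene, was detected on that array alone, at 4.93. Zfy2 and Tsix too were chosen after their values were seen. The other probes of Uty, Eif2s3y and Zfy2 were detected on no array. Neither were the probes of Kdm5d, Sry, Usp9y and Zfy1, also Y-linked. Each E11.5 array, from a single embryo, thus carried signal at a probe of Xist and of a Y-linked gene. In the third embryo the Y-linked signal came from Uty alone, at 5.04, so Y-linked expression there is uncertain. The reason was not tested.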

How the data were processed

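Each RNA sample had its own Illumina mouse bead array. The intensity values are mean bead signals per probe as deposited, which the file headers call non-normalized, though those of the 6 arrays share 1 distribution, as after quantile normalization. A detection p-value per probe and array accompanies them, per the file headers. A second set of values, processed by the authors to a log2 scale with the exact transform not given in the sources used here, served as an alternative. Each array holds 45719 probes, of which 29490 matched 1 gene symbol, 8 several and 16221 none in the platform annotation, giving 17583 symbols.

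The 6 arrays were background-corrected with neqc from the detection p-values (offset 16, quantile normalization, log2) in limma 3.58.1 under R 4.3.3. Testing was limited to probes detected (p under 0.05) on 3 or more of the 6 arrays, and the probe with the highest mean stood for its gene. E11.5 was compared with E10.5 by lmFit and eBayes with an intensity trend, Benjamini-Hochberg adjustment over all genes and a threshold of 0.05. On simulated data the procedure recovered 40.3% of changes of 1.5-fold, 85.1% of 2-fold and 100% of 4-fold, with 7 false calls. A gene not called may thus still differ by 1.5-fold. The simulation gave each gene the same spread at both stages, unlike the data. Tests of single values per array were exact permutation tests.

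Named genes are the 15 largest increases and decreases with replicates that do not overlap, detected on at least 2 arrays of each stage, the 5 largest bounds in each direction, up to 4 called members of each list in each direction by smallest p, and a panel of erythroid, cell cycle and sex-linked genes. Others are said to be chosen after their values were seen. A gene detected on no array of a stage has its fold given as a bound, which does not include the sampling error. Such a gene passed the probe filter only through the 3 arrays of the other stage, so the filter itself favoured its call. Gene lists were described by counts and medians, with no test. Members and lists were chosen with earlier results of these data known. Promoters came from RefSeq tables on GRCm38.p6, matched by symbol, and Python 3.11.15 with matplotlib 3.10.9 drew the figures. Alternatives changed background correction, normalization, probe filter, probe choice, error model, the arrays fitted and the block, and left out each array in turn.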

Additional observations from a re-analysis of the deposited data

How the results depend on the processing

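Of 21 alternatives, all but the model of 18 arrays and the test against a fold kept the counts of 2875 genes called, 1052 higher and 1823 lower, within 1.5 times. Some of these could hardly differ from the main fit, because the deposited signals already shared 1 distribution. They are the fits without normalization (2896 called), with median scaling (2881) and on the log2 of the deposited signal (2877). The dependence on normalization of the scanner signals was thus not tested. In the model of all 18 arrays with 1 round of amplification 1197 genes were called, 430 higher and 767 lower, and the cause of the loss was not tested. A test against a fold of 1.5, which is stricter by construction, called 325 genes, 146 higher and 179 lower. Leaving out 1 array at a time gave 2135 to 3145 genes called, 835 to 1153 higher and 1300 to 1992 lower. The share of calls that were higher ran from 35.6% to 44.9%. Of 339 named genes, 87 stayed on the same side of the threshold, with no called value reversed, under every alternative that gave a value for them. Emd, a lamina-binding protein, was -0.55 in the 6 arrays and 0.011 in the 18 (adjusted p = 0.979 there, limma), the only called one to change sign. In the 18 arrays 146 named genes lost their calls, among them Hba-x, Slc4a1, Nfe2, Hdac5, Hk1, Txnip, Zfp36, Kdr and Prrx1, and 48 of 64 list counts moved by more than 1.5 times.

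Replicate numbers do not pair the samples: embryos and pools with the same number deviated from their stage means with correlations of -0.01, 0.07 and -0.10. With the number as a replicate block, 2788 genes were called, 1041 higher and 1747 lower, 2695 of them shared with the fit without it.

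Dim probes, whose signal is close to background, limit what can be said of genes that were not tested.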

Other observations

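Several families were counted by gene symbol after the data were seen, by the rule used for the lists. Of 29 tested aminoacyl-tRNA synthetase genes, whose enzymes load amino acids on transfer RNA, 17 were lower and 1 higher at E11.5 (median -0.45). The mitochondrial Mars2 had 4.57, 4.80 and 4.54 at E11.5 and 6.36, 6.19 and 6.24 at E10.5 (-1.62), Ears2 fell by 1.58, and Tarsl2 rose by 0.49. Of 14 transfer RNA methyltransferase and pseudouridine synthase genes 10 were lower and 1 higher (median -0.69). Trmt61a fell by 1.34, and Pus10 went the other way, with 7.91, 7.80 and 7.95 at E11.5 and 6.67, 6.20 and 6.28 at E10.5 (1.5). Of 18 genes for protein import into mitochondria (Tomm and Timm) 12 were lower and none higher (median -0.53), with Timm9 at -1.36, and of 8 RNA exosome genes 7 were lower and none higher (median -0.59), with Exosc7 at -1.09.

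The 3 largest spreads between the single E11.5 embryos were in interferon-response genes. Bst2 had an SD of 2.19 and Rsad2 of 1.70 over the 3 embryos, and Helz2, an interferon-induced helicase outside the list, had 6.10, 6.99 and 4.55 at E11.5 and 4.96, 4.88 and 4.53 at E10.5 and was not called. The interferon-inducible GTPases Igtp and Irgm2 rose by 1.58 and 1.68, and Igtp had 9.72, 10.21 and 9.32 at E11.5 and 8.24, 8.24 and 8.03 at E10.5. H2-T24, a class I antigen gene, rose by 1.43. All these genes were chosen after their values were seen. In Helz2, Igtp, Irgm2 and H2-T24, which lie outside the list, the second embryo stood highest. Next in spread came Arl3, Fabp3 and Gdpd3, not in the list either, with SDs of 1.22, 1.14 and 1.07. They ranked above Eif2ak2 and Irf9 of the list, each at 1.02.

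Between the E10.5 pools the spread was largest for Hbb-b2 (SD 1.84), followed by Fbxw5, a substrate receptor of a ubiquitin ligase, with 5.77, 6.32 and 4.35 at E11.5 and 7.99, 7.92 and 4.87 at E10.5 (SD 1.78 at E10.5). Fbxw5 was low in replicate 3 of both stages and was not called. Tomm22, a mitochondrial import receptor, was high in replicate 2 of both stages, with 4.90, 6.58 and 4.75 at E11.5 and 4.98, 7.26 and 4.70 at E10.5.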
